A study of Mus musculus with 16 samples.

Results

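The genes described here carry out and prepare DNA replication, and 43 were chosen by name. They encode 6 subunits of the MCM helicase, 5 factors of origin recognition and helicase loading, 6 of helicase activation, 6 of the sliding clamp and its loader, 7 subunits of polymerases and primase, 3 proteins of flap removal and single-strand binding, 4 enzymes of nucleotide supply, 4 regulators of S phase entry and 2 subunits of the chromatin assembly factor. All 43 of 43 symbols were found among the 54453 genes of the deposited table, and all 43 passed the filter of an average above 0 that left 15278 protein-coding genes for testing.

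Total RNA was sequenced from 16 lines of immortalised mouse embryonic fibroblasts (MEFs), connective tissue cells for which the labels name no transgene or treatment and which had become immortal through serial passage past crisis. The parental line MEF-1 came from a male C57BL/6J embryo collected at E13.5 (days of embryonic development), and MEF-2 from its sister at the same age. From each parental line, 7 clonal lines were raised, every one from 1 sorted cell, and all 16 cultures were collected at 75% confluency with 1 library per line. Each set of lines goes back to 1 embryo and 1 immortalisation, so that embryo, sex and culture history cannot be told apart, and the spread between clonal lines is not a spread between animals. Values are regularised log (rlog) expression on the log2 scale, shrunken towards each gene's average, and the read depth of the lines is unknown. In bulk RNA, fewer cells in S phase and less RNA per cell cannot be told apart.

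The 12 fibroblast markers examined averaged between 4.74 (Thy1) and 20.88 (the collagen gene Col1a1) in rlog. Of these, Dcn, Lum, Pdgfra and Col3a1 were lower in MEF-2 clones than in MEF-1 clones, with differences of -4.74, -3.68, -1.85 and -0.60 on the log2 scale, Thy1 was 2.59 higher, and the other 7 did not pass (limma, adjusted p under 0.05). Their summed level on the linear scale ranged from 5121280 to 7137320 in MEF-1 clones and from 4499700 to 7560840 in MEF-2 clones. Among markers of other embryonic cells, Krt5 and Krt14 of epithelia, Adgre1, Hba-a1 and Hbb-bs of blood, Rbfox3 of neurons and Myod1 and Myog of muscle averaged 0 or below. Others of the same types averaged above 0, up to 7.44 for Cdh1 of epithelia, 5.03 for Cd68 of blood and 3.44 for Des of muscle, and the 4 endothelial markers averaged from 0.43 for Cdh5 to 4.94 for Tek. Of the 4 neural markers, Tubb3 was 1.90 higher in MEF-2, Sox2 and Pax6 differed by -2.01 and -1.69, all 3 called in limma, and the summed level, carried mostly by Tubb3 (average rlog 11.26), was 3238 to 7996 in MEF-2 against 739 to 1757 in MEF-1 clones. Of the endothelial and blood markers, Kdr was lower (-0.89) and Cd79a higher (0.30) in MEF-2. The part of these cell type markers in the differences below was not tested. Over all genes, any pair of clonal lines correlated with r between 0.958 and 0.996. Of the 15278 genes, 56.1% differed between the clones of MEF-1 and those of MEF-2, which is the background for every count of differences that follows.

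DNA replication begins when the origin recognition complex, Cdc6 and Cdt1 load the MCM helicase onto chromatin in G1. At the start of S phase, Cdc45, the GINS complex and Mcm10 turn the loaded helicase into a moving fork, where primase and the polymerases copy both strands behind the clamp Pcna. Many of these genes are transcribed under E2F factors, which are released from pocket proteins when cyclin-dependent kinases become active. The transcripts of these genes are therefore low in resting cells and high in cycling ones.

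Because E2F factors bind short letters near the start sites of such genes, the promoters of the replication genes were searched in RefSeq sequence (GRCm38.p6), from 250 bases before to 50 bases after each start, and 35 of the 43 genes had an entry. The search used TTTCCCGC, TTTCGCGC, TTTGCCGC and TTTGGCGC, on both strands, as E2F-type letters. At least 1 of them stood in 13 of the 35 promoters (37.1%), compared with 2.27% of all 32851 promoters and 4.35% of those of 11715 genes in the fit. The 30-base windows below are shown for 5 genes with the letters and among the 12 largest differences between the sets, and for Cdc25a, which has the letters and the smallest difference. They run 5′ to 3′ along the gene's own strand, with the E2F-type letters or their reverse complement in capitals, where Mcm5 holds 2 overlapping matches.
Orc1, chr4:108579416-108579445 (+): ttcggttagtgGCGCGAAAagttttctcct
Cdc6, chr11:98908002-98908031 (+): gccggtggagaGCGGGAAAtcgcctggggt
Mcm5, chr8:75109345-75109374 (+): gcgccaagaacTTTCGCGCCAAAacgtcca
Pole2, chr12:69228162-69228191 (−): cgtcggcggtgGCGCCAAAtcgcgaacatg
Pola1, chrX:93632275-93632304 (−): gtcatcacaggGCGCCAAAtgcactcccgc
Cdc25a, chr9:109875501-109875530 (+): ggtgaattccgTTTGGCGCcaactaggaaa

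The densest promoter was that of Mcm6, a helicase subunit, where 3 E2F-type matches, of which 1 pair overlapped, and 2 CCAAT boxes (read as CCAAT or its reverse complement ATTGG) lay within the 150 bases before the start. These bases (chr1:128359706-128359855, minus strand, free of annotated exons) are given with the matches in capitals.
Mcm6: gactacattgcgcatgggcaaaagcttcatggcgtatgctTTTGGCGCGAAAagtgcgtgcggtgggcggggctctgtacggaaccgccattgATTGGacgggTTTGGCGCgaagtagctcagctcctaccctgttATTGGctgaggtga

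CCAAT was present in 22 of the 35 promoters (62.9%), against 37.4% of all promoters and 42.5% of those of the genes in the fit, and it can share bases with E2F-type letters, as in Mcm7. TTTGAA and TTCGAA, the letters of the cell cycle homology region found before mitotic genes, stood in 4 (11.4%) and 2 (5.71%) of them. The shares were 17.9% and 1.56% of all promoters and 14.5% and 2.46% of those of the genes in the fit. The median GC content was 57.5% in the replication genes, 60.3% in the genes of the fit and 52.7% in all promoters. A match is a description of letters and not of binding.

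The 7 MEF-2 clonal lines were compared with the 7 MEF-1 clonal lines for the level of the replication genes. These genes were mostly higher in the MEF-2 clones. The difference is one between clones, for the parental lines differed by a median of only -0.05 (MEF-2 minus MEF-1), as described below. In limma with Benjamini-Hochberg adjustment over all 15278 genes, 35 of the 43 (81.4%) rose above MEF-1, against 27.5% of all genes, and 1, E2f1, fell below it, against 28.6% of all genes. The median difference, MEF-2 minus MEF-1, was 0.57 on the log2 scale, a 1.49-fold higher level, whereas the median over all genes was -0.0044. The genes that passed no threshold were Orc6, Gins2, Gins4, Rfc1, Pola2, Ccne1 and Cdc25a.

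**Figure D1:**
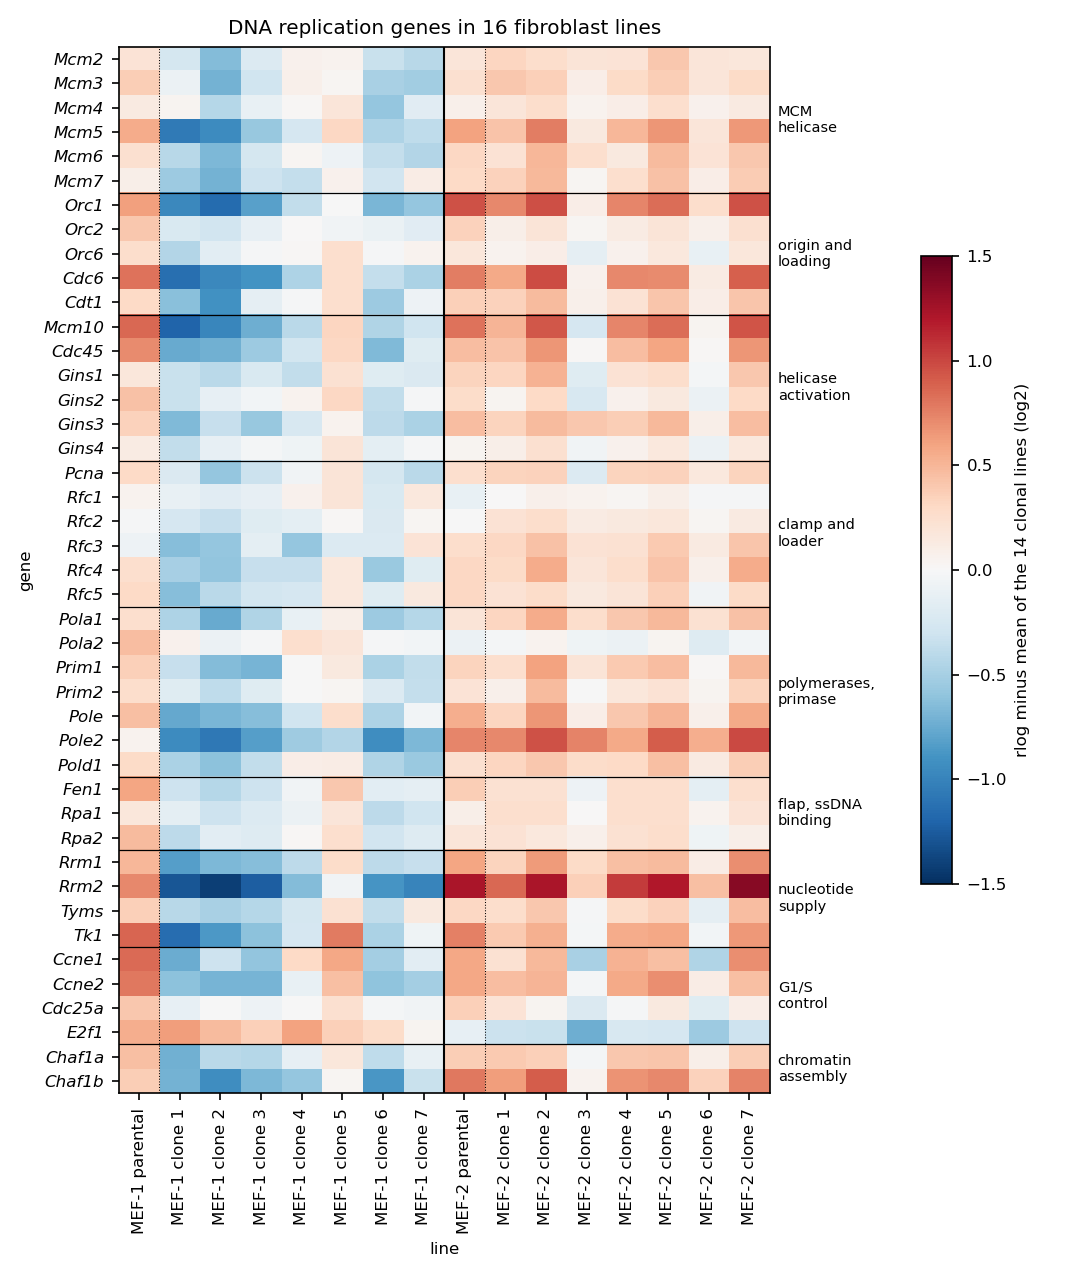
rlog values of the 43 replication genes (rows, grouped by role) in the 16 lines (columns), each as the difference from the gene's mean over the 14 clonal lines on the log2 scale, with higher values in red. The MEF-1 clonal lines are mostly blue except clone 5, the MEF-2 clonal lines mostly red, both parental lines are mostly red, and E2f1 runs the other way.

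Ribonucleotide reductase makes the deoxynucleotides used at the fork, and its small subunit Rrm2 (ENSMUSG00000020649, chr12:24708241-24714146, mm10) had the largest difference of all 43 genes on the deposited values. Its rlog was 10.10 to 11.45 in MEF-1 clonal lines (median 10.51) and 11.86 to 12.87 in MEF-2 (median 12.56). The lowest MEF-2 line, clone 3, lay above the highest MEF-1 line, clone 5. The difference was 1.86 ± 0.21 (SE, n = 7 per set), 3.63-fold, with an adjusted p of 3.42e-06 (limma). With the median of chromosome 12 subtracted in each line, Rrm2 was 1.22 ± 0.21 higher and came after Orc1, at 1.35 ± 0.18. Rrm1, the large subunit, ranged from 12.36 to 13.46 in MEF-1 (median 12.78) and from 13.29 to 13.88 in MEF-2 (median 13.63). The sets touched only through MEF-1 clone 5 and MEF-2 clone 6, and the difference was 0.85 ± 0.14 (adjusted p 0.000151, limma). Tk1, thymidine kinase, had the widest spread of all members in MEF-1, with an SD of 0.62 (n = 7). It ranged from 9.43 to 11.35 there (median 10.09) and from 10.53 to 11.22 in MEF-2 (median 11.11), so that MEF-1 clone 5 exceeded every MEF-2 line. Its difference of 0.75 ± 0.24 still passed (adjusted p 0.014, limma). Tyms, thymidylate synthase, was 0.45 ± 0.13 higher, and the 4 genes of nucleotide supply all rose, with a median of 0.80. The processed pseudogenes Tyms-ps, Pcna-ps1 and Pcna-ps2, which could share reads with their parent genes, averaged at most 1.39.

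Among the polymerases and primase, 6 of 7 genes rose, with a median of 0.68. Pole2 (ENSMUSG00000020974, chr12:69201773-69228195, mm10), the second subunit of the leading-strand polymerase epsilon, had the smallest adjusted p of the 43 genes on the deposited values. It ranged from 7.52 to 8.16 in MEF-1 (median 7.77) and from 9.15 to 9.59 in MEF-2 (median 9.34). No MEF-2 line came near a MEF-1 line, and the difference was 1.55 ± 0.12, 2.94-fold (adjusted p 5.71e-08, limma). With the median of chromosome 12 subtracted, it was 0.91 (adjusted p 1.13e-05, limma), and E2f1 then had the smallest adjusted p. Pole2 overlaps Gm49384 on the same strand, a gene of average rlog 6.65, and their reads may be split uncertainly. Pole, the catalytic subunit, was 0.75 ± 0.15 higher. Pola1, the catalytic subunit of polymerase alpha, lies on the X chromosome and ranged from 10.53 to 11.38 in MEF-1 (median 10.84) and from 11.52 to 11.85 in MEF-2 (median 11.69). All 7 MEF-2 lines lay above all 7 MEF-1 lines, by 0.76 ± 0.11 between the means (adjusted p 3.43e-05, limma). Its partner Pola2, on chromosome 19, was at 10.97 ± 0.13 (SD, n = 7) in MEF-1 and 10.88 ± 0.08 in MEF-2, a difference of -0.10 ± 0.06 that did not pass (adjusted p 0.204, limma) and that turned to 0.27 (adjusted p 0.00103) once the median of its chromosome was subtracted. Pold1 of polymerase delta was 0.65 ± 0.11 higher, and the primase subunits Prim1 and Prim2 were 0.68 ± 0.13 and 0.37 ± 0.09 higher.

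**Figure D2:**
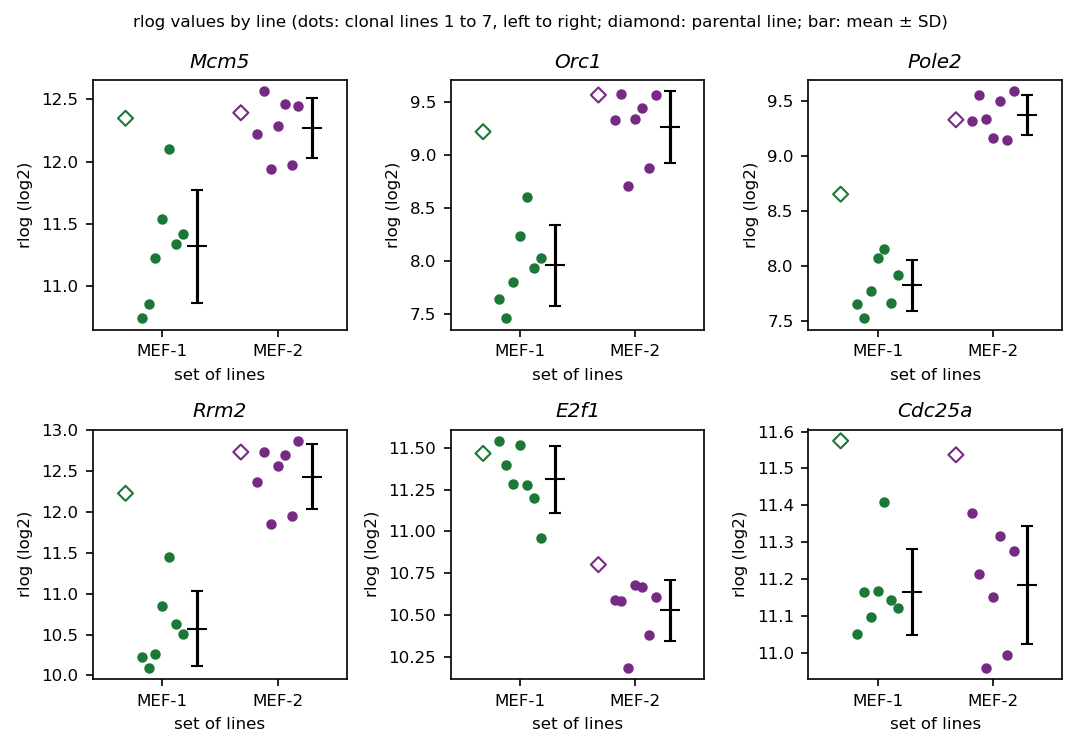
rlog values (log2, vertical axes, each with its own range) of 6 replication genes in each line of MEF-1 (green) and MEF-2 (purple), with dots for clonal lines 1 to 7 from left to right, a diamond for the parental line and bars for the mean ± SD of the 7 clonal lines. Pole2, Rrm2, Orc1 and E2f1 show no overlap between the clonal lines, Mcm5 overlaps through MEF-1 clone 5, and Cdc25a overlaps throughout.

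Of the 5 origin and loading factors, 4 rose, with a median of 0.58. Orc1 (ENSMUSG00000028587, chr4:108579423-108614833, mm10), the largest subunit of the origin recognition complex, ranged from 7.46 to 8.60 in MEF-1 (median 7.93) and from 8.71 to 9.58 in MEF-2 (median 9.34). The sets did not overlap, by a narrow margin between MEF-1 clone 5 and MEF-2 clone 3, and the difference was 1.31 ± 0.18, 2.47-fold (adjusted p 3.09e-05, limma). Cdc6, which loads the helicase with the origin complex, ranged from 8.16 to 9.55 in MEF-1 (median 8.83) and from 9.36 to 10.27 in MEF-2 (median 10.01). MEF-1 clone 5 lay above MEF-2 clones 3 and 6 and the other MEF-1 lines below all of MEF-2, and the difference was 1.16 ± 0.21 (adjusted p 0.000271, limma). Cdt1, the other loading factor, was 0.58 ± 0.15 higher, although it overlaps Gm20388 on the same strand (average rlog 11.96). Orc2, a subunit of the core complex, was only 0.27 ± 0.05 higher, yet its 7 MEF-2 lines all lay above the 7 MEF-1 lines, since its SD was 0.10 and 0.07. Orc6, the smallest subunit, ranged from 10.43 to 11.13 in MEF-1 (median 10.86) and from 10.73 to 11.04 in MEF-2 (median 10.93), so that the MEF-2 lines fell inside the MEF-1 range (difference 0.09 ± 0.09, adjusted p 0.441, limma).

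All 6 subunits of the MCM helicase rose, with a median of 0.58, and they differed in size although their products assemble in equal numbers. Mcm5 ranged from 10.74 to 12.10 in MEF-1 (median 11.34) and from 11.94 to 12.57 in MEF-2 (median 12.29). Only MEF-1 clone 5 reached into the MEF-2 range, and the difference of 0.96 ± 0.18 (adjusted p 0.000357, limma) was the largest of the 6 subunits. Mcm6, Mcm7, Mcm3 and Mcm2 were 0.63 ± 0.10, 0.58 ± 0.12, 0.57 ± 0.11 and 0.50 ± 0.10 higher, and Mcm2, Mcm3 and Mcm6 showed no overlap between the sets. Mcm4 had the smallest difference, 0.30 ± 0.10 (adjusted p 0.0209, limma). Per kilobase of transcript, the average level over the 16 lines (rlog minus log2 of the length) was 11.62 for Mcm6, 11.44 for Mcm7, 11.04 for Mcm2, 11.02 for Mcm4, 10.90 for Mcm3 and 10.11 for Mcm5, so that the subunit with the largest difference had the lowest level of the 6. On the same scale of level, Pcna was highest of all 43 genes at 12.22 and Orc1 lowest at 7.12.

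Of the 6 factors that activate the helicase, 4 rose, with a median of 0.59. Mcm10, which starts the loaded helicase, was among the most variable genes in both sets, with an SD of 0.50 in MEF-1 and 0.47 in MEF-2 (n = 7 each). It ranged from 8.43 to 9.95 in MEF-1 (median 9.18) and from 9.37 to 10.57 in MEF-2 (median 10.35), and MEF-2 clones 3 and 6 lay inside the MEF-1 range. The difference was 1.07 ± 0.24 (adjusted p 0.00153, limma). Cdc45, a partner of the moving helicase, ranged from 9.07 to 10.13 in MEF-1 (median 9.27) and from 9.83 to 10.48 in MEF-2 (median 10.28), where MEF-1 clone 5 overlapped with MEF-2, and it was 0.81 ± 0.17 higher (adjusted p 0.000866, limma). The GINS subunits, which form a complex of equal parts, did not share 1 size of difference. Gins3 was 0.75 ± 0.11 higher without overlap and Gins1 0.43 ± 0.13 higher, whereas Gins4 (0.16 ± 0.08, adjusted p 0.0937) and Gins2 (0.15 ± 0.11, adjusted p 0.279) did not pass in limma.

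The clamp Pcna, which holds the polymerases on DNA, was 0.47 ± 0.11 higher, from 12.55 ± 0.25 (SD, n = 7) in MEF-1 to 13.02 ± 0.21 in MEF-2. Of the clamp loader, Rfc4, Rfc3, Rfc5 and Rfc2 were 0.67 ± 0.12, 0.61 ± 0.12, 0.41 ± 0.11 and 0.31 ± 0.06 higher. The large subunit Rfc1 ranged from 12.70 to 13.13 in MEF-1 (median 12.81) and from 12.91 to 13.01 in MEF-2 (median 12.96). Its MEF-2 lines lay inside the MEF-1 range, with a difference of 0.06 ± 0.06 (adjusted p 0.435, limma). Rpa1 and Rpa2, which coat single-stranded DNA, were 0.36 ± 0.08 and 0.27 ± 0.09 higher. Fen1, the nuclease that trims Okazaki fragments, was 0.28 ± 0.11 higher with an adjusted p of 0.0457 in limma, a call that did not hold when any of 11 of the 14 lines was left out or in the exact permutation test. Chaf1b and Chaf1a place histones behind the fork. Chaf1b ranged from 9.16 to 10.12 in MEF-1 (median 9.41) and from 10.14 to 11.00 in MEF-2 (median 10.76), with MEF-2 clone 3 barely above MEF-1 clone 5 (difference 1.16 ± 0.16, adjusted p 1.91e-05, limma). Chaf1a was 0.57 ± 0.12 higher.

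The 4 regulators of S phase entry were the only role with calls in both directions. E2f1 (ENSMUSG00000027490, chr2:154559407-154569892, mm10), the activator of many genes in the list, ranged from 10.96 to 11.54 in MEF-1 (median 11.28) and from 10.19 to 10.68 in MEF-2 (median 10.59). Every MEF-2 line lay below every MEF-1 line, which held for 13.6% of all genes, and E2f1 fell by 0.78 on the log2 scale (SE 0.10, adjusted p 9.93e-06, limma). Ccne2, 1 of the cyclins E, ranged from 9.73 to 10.88 in MEF-1 (median 9.82) and from 10.40 to 11.12 in MEF-2 (median 10.89), and rose by 0.80 ± 0.17 (adjusted p 0.00133, limma). MEF-1 clone 5 was the line that brought the sets into contact. Ccne1, the other cyclin E, was wide in both sets, at 8.90 to 10.22 in MEF-1 (median 9.34, SD 0.49) and 9.17 to 10.35 in MEF-2 (median 10.10, SD 0.48). Its difference of 0.41 ± 0.24 did not pass (adjusted p 0.151, limma). Cdc25a, the phosphatase that activates the kinase of cyclin E, ranged from 11.05 to 11.41 in MEF-1 (median 11.14) and from 10.96 to 11.38 in MEF-2 (median 11.21). Its difference of 0.02 ± 0.07 was the smallest of the 43 genes (adjusted p 0.841, limma), although its promoter carries E2F-type letters, shown above, and its sign turned under quantile normalisation or without MEF-2 clone 1 or 5 (-0.0016, -0.013 and -0.0025).

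**Figure D3:**
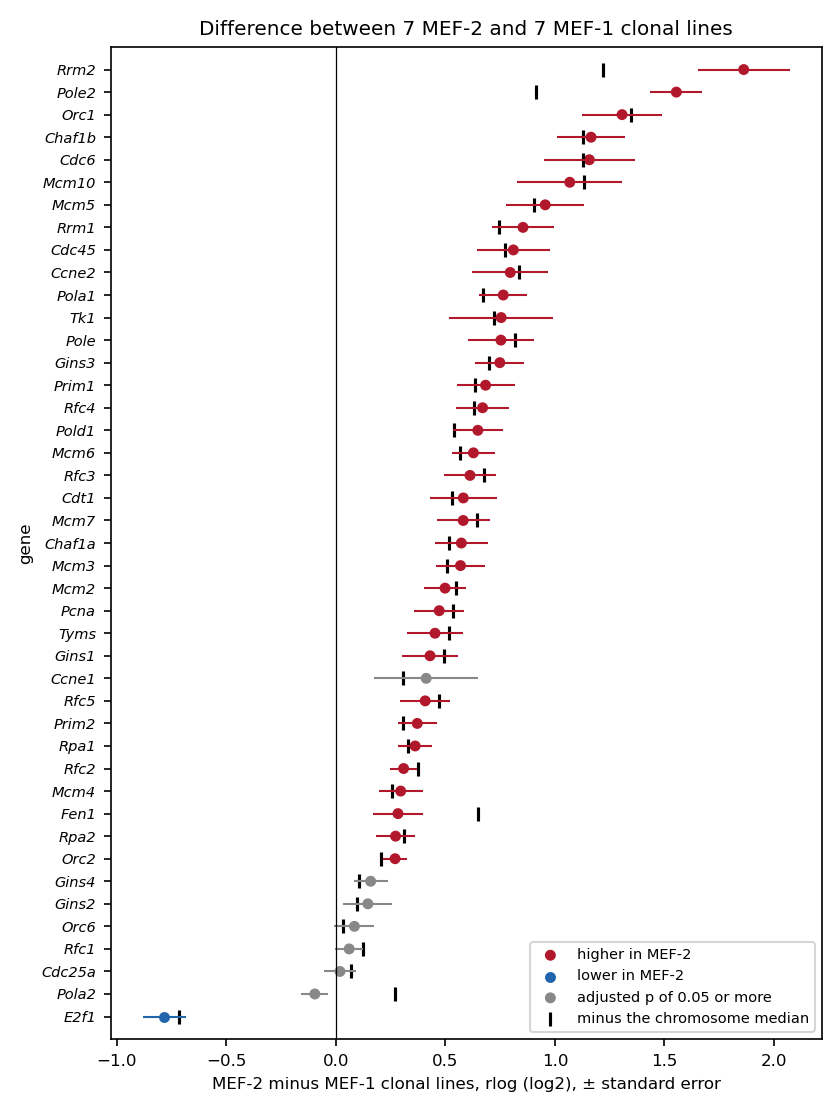
Difference between the means of the 7 MEF-2 and the 7 MEF-1 clonal lines (points, rlog on the log2 scale, with bars of ± 1 standard error) for each of the 43 genes, and the same difference after the median of the gene's chromosome was subtracted (black ticks). Rrm2 and Pole2 on chromosome 12 move left after the subtraction and stay to the right of 0, and Fen1 and Pola2 on chromosome 19 move right.

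The 13 genes with E2F-type letters in the promoter had a median difference of 0.65, and 12 of them rose. The 22 searched genes without these letters had a median of 0.46, and 17 rose, where 27.5% of all genes did. The 8 genes with no promoter entry had a median of 0.34, and 6 rose. E2f1, Rrm2 and Chaf1b were among the genes without a match in the window searched. The difference between these groups of genes was not tested.

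All 7 MEF-2 lines lay above all 7 MEF-1 lines for 12 of the 43 genes, against 12.3% of all genes. These were Mcm2, Mcm3, Mcm6, Orc1, Orc2, Gins3, Rfc2, Pola1, Pole2, Pold1, Rrm2 and Chaf1b. The count was held down by MEF-1 clone 5, for without that line it rose to 27, against 14.8% of all genes. It stayed between 12 and 16 when any other line was left out. The number of genes called higher changed less, to 36 without clone 5.

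The values of the replication genes varied among the clonal lines of a set. With 1 library per line, a spread between lines and a spread between libraries cannot be told apart. The mean deviation of the 43 genes from the average of the 14 clonal lines was -0.29 ± 0.25 in MEF-1 (SD, n = 7) and 0.29 ± 0.17 in MEF-2 (SD, n = 7). In MEF-1, clones 1 to 7 stood at -0.50, -0.54, -0.38, -0.14, 0.17, -0.38 and -0.23. Clone 5 was the highest MEF-1 line for 34 of the 43 genes and lay above the MEF-1 mean for 42, and clones 2 and 1 were the lowest for 20 and 16. In MEF-2, clones 1 to 7 stood at 0.30, 0.45, 0.04, 0.31, 0.41, 0.05 and 0.42. Clones 3 and 6 were the lowest MEF-2 lines for 22 and 19 genes, and clone 2 was the highest for 20. MEF-1 clone 5 thus lay above MEF-2 clones 3 and 6 in this mean.

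The spread was larger in MEF-1. The median SD of the 43 genes was 0.28 among MEF-1 clonal lines and 0.17 among MEF-2 clonal lines, against 0.20 and 0.16 over all genes, and the SD was larger in MEF-1 for 40 of the 43 (93.0%), as it was for 63.4% of all genes. The ratio of the medians fell from 1.63 to 1.27 without MEF-1 clone 5 and to 1.40 with the chromosome medians subtracted. It was 1.735 with the range in place of the SD, and it was not tested. In MEF-1, the genes with the largest SD were Tk1, Mcm10 and Ccne1, and in MEF-2 Ccne1, Mcm10 and Rrm2 (SD 0.39).

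The genes were high together and low together from line to line. After the mean of the own set was subtracted, the r of each gene with the mean of the other 42 over the 14 clonal lines had a median of 0.860, and 28 of the 43 exceeded 0.8, compared with 3.69% of all genes, whose median r with the mean of the 43 was 0.034. Cdc45 was highest at 0.980, followed by Orc1 at 0.975 and Mcm5 at 0.963. E2f1, with 0.179, did not share the pattern, and Rfc3 (0.428), Mcm4 (0.599) and Mcm3 (0.616) shared less of it. Rfc3 was highest of MEF-1 in clone 7, whose chromosome 5, which carries it, had a median of 0.25. Mcm4 was lowest of MEF-1 in clone 6, whose chromosome 16, which carries it, had a median of -0.18. The part of these chromosomes in the r was not tested. These values are descriptions over 14 lines that share size factors and changes of chromosome number. The median r was 0.801 without MEF-1 clone 5 and 0.847 to 0.877 without any other line. By promoter, it was 0.819 for the 13 genes with E2F-type letters and 0.872 for the 22 searched genes without them. For the 8 genes with no promoter entry it was 0.852, and the difference between these groups was not tested.

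**Figure D4:**
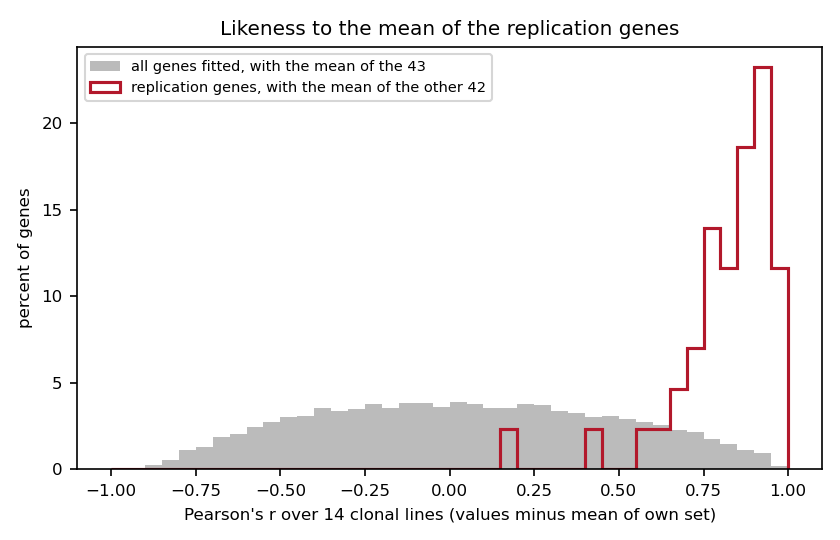
Distribution of Pearson's r over the 14 clonal lines (each value minus the mean of its own set), as percent of genes in bins of r, for each replication gene with the mean of the other 42 (red line) and for all 15278 genes with the mean of the 43 (grey). The replication genes lie mostly between 0.6 and 1, apart from Rfc3 at 0.428 and E2f1 at 0.179, while the grey distribution is broad and centred near 0.

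Outside the list, the genes most like the mean of the 43 included Fignl1 (r = 0.983), Ncapg2 (0.978), Dctpp1 (0.976), Atad2 (0.974), Brca1 (0.969), Ruvbl2 (0.968), Plk4 (0.965), Cenpu (0.963) and Ticrr (0.963), each over the same 14 lines. Ncapg2 is a condensin subunit, Plk4 the kinase of centriole duplication and Cenpu a kinetochore protein. The differences of all these named genes between MEF-2 and MEF-1 ran from 0.56 for Ruvbl2 to 1.53 for Ncapg2, and all passed in limma. Ncapg2 lies on chromosome 12, whose median differed by 0.64 between the sets, and the next largest of those named was Brca1 at 0.94.

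The 29 genes of mitosis, transcribed later in the cycle, were the nearest comparison. All 29 rose in MEF-2, against 27.5% of all genes, with a median of 0.97. On the deposited values the largest were Cdc25c at 1.30 ± 0.23 and Kif20a at 1.28 ± 0.22, followed by the proliferation marker Mki67 at 1.18 ± 0.23. Cdc25c, a phosphatase of mitotic entry, and Kif20a, a kinesin of cytokinesis, lie on chromosome 18. With the chromosome medians subtracted in each line, they were 1.00 and 0.98 higher. Bub1, of the same list, was then the largest at 1.22. Over the 14 clonal lines, each as its deviation from the mean of its own set, the means of the replication and mitosis genes correlated with r = 0.911 (Spearman's rho 0.859), and with r = 0.853 when MEF-1 clones 2 and 5, the 2 lines farthest from the median, were left out. Clone 5 was the only MEF-1 clone with a mean above 0 in both lists.

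**Figure D5:**
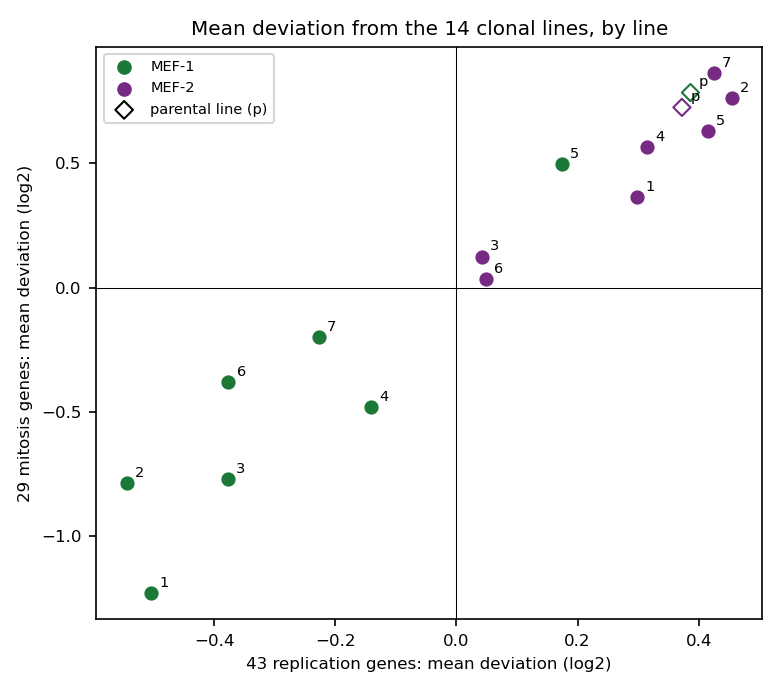
Mean deviation of the 43 replication genes (horizontal axis) and of the 29 mitosis genes (vertical axis) from the average of the 14 clonal lines, on the log2 scale, with 1 point per line, numbered by clone, and diamonds for the parental lines. MEF-1 clone 5 lies with the MEF-2 clones, MEF-1 clones 1 and 2 lie at the other end, and both parental lines lie among the highest MEF-2 clones.

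Each parental line was set against its own clones, with 1 library of each parental line and therefore no test. In MEF-1, the parental line lay above all 7 clonal lines for 34 of the 43 genes, against 20.2% of all genes, within their range for 9, against 59.1% of all genes, and below it for 0. The clonal lines stood at a median of 0.59 below the parental line. The count was 38 without clone 5 and 36 with the chromosome medians subtracted. Chromosome 12, with Pole2 and Rrm2, had a median of -0.07 in the MEF-1 parental line and of -0.38 to -0.30 in its clones. Chromosome 19, with Pola2 and Fen1, had a median of 0.10 in that parental line and of 0.14 to 0.21 in its clones. Tk1 was at 11.44 in the parental line and at most 11.35 in the clones, Cdc6 at 10.12 and at most 9.55, and Ccne2 at 11.21 and at most 10.88. The 9 within the range were Mcm4, Mcm7, Gins1, Gins4, Rfc1, Rfc2, Rfc3, Rpa1 and E2f1. In MEF-2, the parental line lay above its clones for 5 genes, against 15.8% of all genes, within their range for 35, against 65.8%, and below it for 3. The count of 5 was 8 without clone 7 and also 8 with each line centred on its autosomal median or with the chromosome medians subtracted. The median of the clonal lines minus the parental line was -0.08. The 5 were Orc2, Fen1, Tk1, Cdc25a and E2f1, and the 3 were Rfc1, Rfc2 and Pola1.

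The parental lines, which share no library with the comparison of the clonal lines, differed little between embryos, with a median of -0.05 (MEF-2 minus MEF-1), and MEF-2 was the higher one for 16 of the 43 genes. Mcm5 was at 12.35 and 12.39, Cdc6 at 10.12 and 10.06, and Mcm10 at 10.49 and 10.44 in MEF-1 and MEF-2. Several genes kept the direction seen in the clones, namely Pole2 (8.65 and 9.33), Rrm2 (12.23 and 12.74), Chaf1b (10.46 and 10.88), Orc1 (9.22 and 9.57) and E2f1 (11.47 and 10.80). Pola2 was lower in MEF-2, at 10.84 against 11.39. Chromosome 12, which carries Pole2 and Rrm2, had a median of -0.07 in the MEF-1 parental line and 0.26 in the MEF-2 parental line. Chromosome 19, which carries Pola2, had a median of 0.10 and -0.17 in these lines. The part of these chromosomes in the differences between the parental lines was not tested. The mean deviation of the 43 genes was 0.39 for the parental line of MEF-1 and 0.37 for that of MEF-2, near the highest clone of MEF-2. The comparison of the MEF-1 clones with their parental line and that with the MEF-2 clones use the same 7 libraries.

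Chromosome number differs between the sets, and 4 of the 43 genes lay on chromosomes 12 and 19. Pola1 lay on the X, which differs by sex. The median of the X was 0.09 higher in MEF-2, and Pola1 was 0.67 higher with it subtracted. The median of MEF-2 minus MEF-1 over the genes of chromosome 12 was 0.64, and over those of chromosome 19 it was -0.37, while the other chromosomes that carry replication genes lay between -0.07 and 0.11. After subtraction of the chromosome's median in each line, Rrm2 (adjusted p 0.000191, limma) and Pole2 were still called higher in MEF-2, while on chromosome 19 Fen1 moved to 0.65 and Pola2 turned direction, as given above. Among the 38 genes outside chromosomes 12, 19 and X, 31 rose, with a median of 0.57.

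Of 61 further replication genes, 38 rose (62.3%) and 5 fell, against 27.5% and 28.6% of all genes, with a median of 0.30. The largest were Dna2 at 1.65 ± 0.14, a nuclease and helicase of Okazaki fragments, E2f7 at 1.20 ± 0.21, a repressor of E2F targets, and Uhrf1 at 1.15 ± 0.21, which brings the maintenance methyltransferase to replicated DNA. Dna2 ranged from 7.81 to 8.48 in MEF-1 and from 9.42 to 10.10 in MEF-2, with no overlap. Rnaseh2c, a subunit of the enzyme that removes ribonucleotides from DNA, fell by 0.70 (SE 0.13), Cul4a, a scaffold of the ligase that degrades Cdt1, by 0.54 (SE 0.04), and Pole3, a small subunit of polymerase epsilon, by 0.44 (SE 0.05). Pole3 thus went against Pole and Pole2 of the same enzyme. Rnaseh2c lies on chromosome 19 and was -0.33 after subtraction of the chromosome's median (adjusted p 0.0347, limma).

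Among 15 cell cycle inhibitors, pocket proteins and G1 cyclins, 6 rose (40%) and 5 fell, against 27.5% and 28.6% of all genes. Their median was -0.05 and turned to 0.038 without MEF-1 clone 7, and single genes differed by more than any replication gene. Cdkn1c, an inhibitor of cyclin-dependent kinases, fell by 5.05 (SE 0.33), from 11.59 to 14.12 in MEF-1 to 7.09 to 8.28 in MEF-2. Cdkn2a and Cdkn2b, neighbouring genes with inhibitors of the cyclin D kinases among their products, fell by 2.21 (SE 0.13) and 1.95 (SE 0.13). Cdkn1a, the inhibitor p21 induced by p53, was 2.61 ± 0.23 higher in MEF-2, at 11.58 to 12.73 against 8.66 to 10.41. Ccnd2, a cyclin D, and Rbl1, a pocket protein, were 0.64 ± 0.12 and 0.54 ± 0.10 higher. The parental lines lay on the same sides for Cdkn1c (10.77 and 8.90), Cdkn2a (12.92 and 10.72) and Cdkn1a (11.63 and 12.39). The clones of MEF-1, with the lower replication genes, thus had more transcript of Cdkn1c, Cdkn2a and Cdkn2b and less of Cdkn1a, and the part of these inhibitors in the differences of the replication genes was not tested.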

How the data were processed

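Per the labels, RNA of 16 lines was depleted of ribosomal RNA and made into directional libraries. The authors trimmed reads with Trim Galore 0.6.0, quantified transcripts with Salmon 1.5.2 against mm10, and deposited log2 values of the regularised log transformation of DESeq2 1.24.0. The strand setting, the summing of transcripts to genes and whether the transformation was blind are not given in the sources used here, so reads of overlapping genes may be shared. The table held 0 columns without a sample. No counts were at hand, so depth, intervals and floors could not be computed, and the fit planned for the deposited log2 values was used.

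Genes were matched by identifier to GENCODE release M21 (mm10, 1-based coordinates). Differences were fitted with limma 3.58.1 (R 4.3.3, trended variance prior) on 15278 protein-coding genes with an average above 0, 7 MEF-2 against 7 MEF-1 clonal lines, two-sided, with Benjamini-Hochberg adjusted p under 0.05 as a call and the SE moderated by limma. Each gene was also tested with an exact permutation test over the 3432 splits of the 14 lines. The alternatives were filters, variance priors, scalings, chromosome medians, added parental lines, a block by clone number and each line left out. The limma fit and the r with the mean of the members were tested on simulated data, and the other computations were not.

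The members and lists were chosen with earlier results of these data known. All 43 members could be named. Ranges were given for the 12 largest and 3 smallest differences and the 3 largest SDs in each set, other genes were named by the 3 largest called differences in each direction of a list or by the 10 highest r (1 of which is not reported here), and values beyond these were chosen after they were seen. Of 62 further replication genes, Chtf8 had an ambiguous symbol and was not used. Python 3.11.15 with pandas 2.3.3, numpy 2.4.6, scipy 1.17.1 and matplotlib 3.10.9 was used. The bisulfite data were not analysed here.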

Additional observations from a re-analysis of the deposited data

Results flagged for a closer look

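In 4 of the 86 sets of 7 values (43 genes in MEF-1 and in MEF-2), 1 clonal line lay farther from its nearest neighbour than the critical value of Dixon's test allows, where chance gives about 4.3. MEF-1 clone 5, the line with the highest replication genes of its set, was the high one for Gins1 (8.65, nearest line 8.24) and for Cdc25a (11.41, nearest line 11.17). MEF-2 clone 6 was the low one for Gins3 (8.79, nearest line 9.04). MEF-2 clone 3 was the low one for Pcna (12.58, nearest line 12.94), and the genes of chromosome 2, which carries Pcna, had a median of -0.26 in that clone relative to the other clones of its set. The part of the chromosome in the value was not tested.

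For Pola1, every MEF-1 clone lay below the MEF-1 parental line, by a mean of 0.63, while every MEF-2 clone lay above the MEF-2 parental line, by a mean of 0.19. With 1 library per parental line this difference was not tested.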

How the results depend on the processing

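The number of replication genes called higher in MEF-2 was 34 to 36 when 1 clonal line was left out and 31 to 36 in the other settings, E2f1 was the 1 gene called lower in all of them, and the median difference lay between 0.49 and 0.63. Of 1070 alternatives for single genes over 25 settings, 1047 kept the direction and the side of the threshold, and 37 of the 43 genes did so in every setting. The exceptions were Fen1, Rpa2, Gins4, Ccne1, Pola2 and Cdc25a, of which Fen1 and Rpa2 lost their call in 16 and 1 settings. Pola2 turned to 0.27 after subtraction of the chromosome median, and Cdc25a turned to -0.0016 under quantile normalisation and to -0.013 and -0.0025 without MEF-2 clones 1 and 5, within a range of -0.013 to 0.060 over the lines left out. Without chromosomes 12, 18, 19, X and Y, 3 of the further replication genes were called lower, since 2 of the 5 lie there. The median of the inhibitors and G1 cyclins ranged from -0.11 to 0.038 when 1 line was left out, the positive value without MEF-1 clone 7, and was 0.011 after subtraction of the chromosome median. The MEF-2 parental line lay above all its clones for 8 genes with lines centred on the autosomal median, for 8 after subtraction of the chromosome median and for 5 to 8 when 1 clone was left out, 8 being without clone 7. The cause of these changes was not tested.

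With clone number as a block, 36 replication genes were called higher and 1 lower, as Ccne1 was added. The numbers do not pair the lines, which come from different cells. The correlation of same-numbered deviations ran from -0.133 to 0.199 over the 7 pairs, and 1 of 7 MEF-1 lines correlated best with its own number. The exact permutation test cannot give a p below 0.000583, and the unknown depth limits what can be said of single lines.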
